A study of Mus musculus with 6 samples.

Results

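Dendritic epidermal T cells with the V delta segment Trdv4 were taken from the skin of 6 mice, and 1304 of the 21178 deposited cells (6.16%) met the rule. A cell was chosen if it held a unique molecular identifier (UMI, 1 counted RNA molecule) of Cd3e, Cd3d or Cd3g and of Trdv4, and none of Cd8a, Cd8b1, Cd4 or Trbv13-3. Its Krt5 and Krt14 values had to sum to less than 20 UMIs per 10000 UMIs of the cell, and it could not hold both Mki67 and Top2a. The choice used these measured values, so they are described here and no test of any of them is reported. Cd3e, Cd3d, Cd3g, Trdv4, Krt5, Krt14, Mki67 and Top2a did stay among the genes fitted between AG and NO_AG. Of the members, 45 had a keratin sum between 10 and 20, and 25 cells that met the other criteria lay between 20 and 30. A further 83 cells were left out because they held both cycling genes.

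All mice were of the NINJA strain, 6 to 12 weeks old, and the skin area treated with 4-OH-Tam was made into single-cell suspensions for a 10x Genomics 5′ kit. The 3 groups of 2 mice were labelled NO_AG (antigen off), AG (antigen on) and AG_CPI (antigen on plus CPI, an abbreviation that the labels do not spell out). The protocol says that P14 cells, a line of CD8 T cells with a transgenic receptor, were recovered from each mouse, and the labels do not say which cells of the data they are. P-values of gene tests between groups rest on the spread between the 2 mice of a group. Those of members against CD8 T cells rest on the spread of differences within 5 mice, and those of shares on permutations of mice.

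Dendritic epidermal T cells are gamma-delta T cells that settle in mouse epidermis before birth and stay there, lying between keratinocytes. Most share a single pair of gamma and delta segments, sense stressed or damaged keratinocytes through that receptor and through activating receptors such as NKG2D, and release growth factors that act on the epithelium. They are known for roles in wound repair and in the surveillance of the epidermis.

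The receptor segment that defined the cells lies on chromosome 14 of mm10 (gene at 54074905 to 54075515, plus strand, GENCODE M21). The coding part of its exon 2, which encodes the variable domain, is shown because a UMI of this gene was the entry criterion, at chr14:54075217-54075515 on the plus strand.
Trdv4: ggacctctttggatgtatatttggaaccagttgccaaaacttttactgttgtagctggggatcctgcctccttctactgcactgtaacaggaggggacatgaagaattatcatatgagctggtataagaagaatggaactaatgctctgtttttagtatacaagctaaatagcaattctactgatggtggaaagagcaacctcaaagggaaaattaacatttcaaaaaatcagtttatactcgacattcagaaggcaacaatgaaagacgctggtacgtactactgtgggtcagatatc

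The number of members per mouse was 541 and 352 for mouse 1 and mouse 2 of NO_AG, 253 and 132 for those of AG, and 7 and 19 for those of AG_CPI. The cells of a library had a median of 2527 to 4744 UMIs, and members of a mouse a median of 1620 to 2816.5. Members held a median of 12, 15, 11, 7, 4 and 9 Trdv4 UMIs, in the same order of mice, and 67 members held only 1. In keratinocytes, defined as cells with a keratin sum of at least 20 and no Cd3 UMI, a Trdv4 UMI was found in 113 of 6799 cells, or 0% to 2.74% of a mouse's keratinocytes, at median depths of 2230.5 to 6920.5 UMIs. Trdv4 UMIs were thus also found in cells without a Cd3 UMI, and the members' own Trdv4 counts follow from the rule. Among 2106 cells with both Cd3 and Trdv4 UMIs, 306 held a Cd8 UMI and were not members. These excluded cells had a median of 16 and 3 Trdv4 UMIs in NO_AG mouse 1 and mouse 2, and of 1 in both AG and both AG_CPI mice, so in NO_AG mouse 1 their median was above that of the members.

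The label was checked against the other 4 markers given for these cells, and most members of each mouse held most of them. At least 3 of Trdc, Xcl1, Cd7 and Trat1 were detected in 86.8% of members, and none in 37 cells (2.84%). By mouse, that share was 93.9% and 90.3% for NO_AG, 81.0% and 63.6% for AG, and 71.4% and 63.2% for AG_CPI. A Trdc UMI, the constant region of the delta chain, was missing in 237 members (18.2%). The summed level of 4 alpha-beta T cell markers was 2.63 to 4.36 UMIs per 10000 in members of the 6 mice, and 5.41 to 13.9 in CD8 T cells of the same mice. The 6 natural killer and type 1 innate lymphoid markers with a column summed to 10.3 to 84.8 in members and 2.23 to 9.57 in CD8 T cells, and the list holds Xcl1, a marker of the members, and Gzmc. Of its other genes, Eomes was at 0 in members of all 6 mice, Ncr1 was found in 1 cell of each NO_AG mouse and in none elsewhere, and Klrb1c was at 0 to 0.521. Kit went the other way, at 0.0994 and 0.0985 in members of NO_AG, 0.0393 and 1.42 in those of AG and 0.912 and 0.527 in those of AG_CPI, against 0.0203 to 0.102 in CD8 T cells. The 10 type 17 gamma-delta T cell markers with a column summed to 0.517 and 0.953 in members of NO_AG, to 1.56 and 3.13 in those of AG, and to 5.35 and 5.56 in those of AG_CPI. The gamma segment partner and its constant region have no column under the symbols listed and were not used here.

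Marker levels are means over the members of a mouse, in UMIs per 10000. Trdv4 averaged 55.9 and 55.0 for NO_AG, 54.2 and 38.7 for AG, and 26.5 and 45.4 for AG_CPI. Trdc averaged 11.1 and 9.25, 9.52 and 8.76, and 11.5 and 10.2 in the same order, so the groups overlapped. Trat1, an adaptor that stabilizes the T cell receptor complex at the surface, averaged 10.4 and 10.6, 11.0 and 6.86, and 10.3 and 8.73. For each of these 3 genes AG mouse 2 lay below both NO_AG mice. Xcl1, a chemokine that attracts cross-presenting dendritic cells, averaged 27.4 and 26.9 for NO_AG, 11.1 and 20.6 for AG, and 9.35 and 11.5 for AG_CPI. The NO_AG mice were the highest for Xcl1, and the AG and AG_CPI mice did not reach them. Cd7, a surface glycoprotein of T and natural killer cells, averaged 58.6 and 65.0, 61.1 and 14.1, and 47.1 and 27.2, with AG mouse 2 the lowest of all 6.

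Members made up a smaller part of the cells in AG_CPI than in the other groups, whichever cells they were set against. Of all deposited cells they were 10.9% (Wilson 95% interval 10.0% to 11.8%) and 8.60% (7.78% to 9.49%) in NO_AG. In AG they were 7.22% (6.41% to 8.13%) and 2.83% (2.39% to 3.35%). In AG_CPI they were 0.403% (0.195% to 0.830%) and 0.861% (0.552% to 1.34%). The 3 groups did not overlap, with means of 9.74% ± 1.62, 5.03% ± 3.11 and 0.632% ± 0.323 (SD, n = 2 mice each). The intervals cover counting error only. The odds were 7.68-fold lower in AG_CPI than in AG, 17.3-fold lower than in NO_AG, and 2.25-fold lower in AG than in NO_AG. Each AG mouse weighed on these values: the log2 odds ratio of AG against NO_AG was -1.17 with all mice, -1.88 without AG mouse 1 and -0.46 without AG mouse 2, and that of AG_CPI against AG was -2.94, -2.23 and -3.65. Each of these comparisons gave p = 0.333 in a two-sided exact permutation test, the smallest that 2 mice against 2 can give, so none could pass a threshold of 0.05.

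The denominator changed the AG comparison and left the order of AG_CPI in place. The CD8 T cells numbered 109 and 334 for NO_AG, 733 and 482 for AG, and 636 and 721 for AG_CPI, so the share of all cells moves with them. Per 100 keratinocytes, members numbered 22.6 and 20.5 for NO_AG, 26.9 and 9.79 for AG, and 4.93 and 7.48 for AG_CPI. On that scale AG and NO_AG overlapped, with a log2 difference of -0.41 that was 0.32 without AG mouse 2, while both AG_CPI mice lay below the other 4. Of Cd3-positive cells without a Cd8 UMI, members were 39.1% and 30.1%, 26.3% and 10.6%, and 6.42% and 6.71%. Here too the AG_CPI mice were the lowest.

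**Figure D1:**
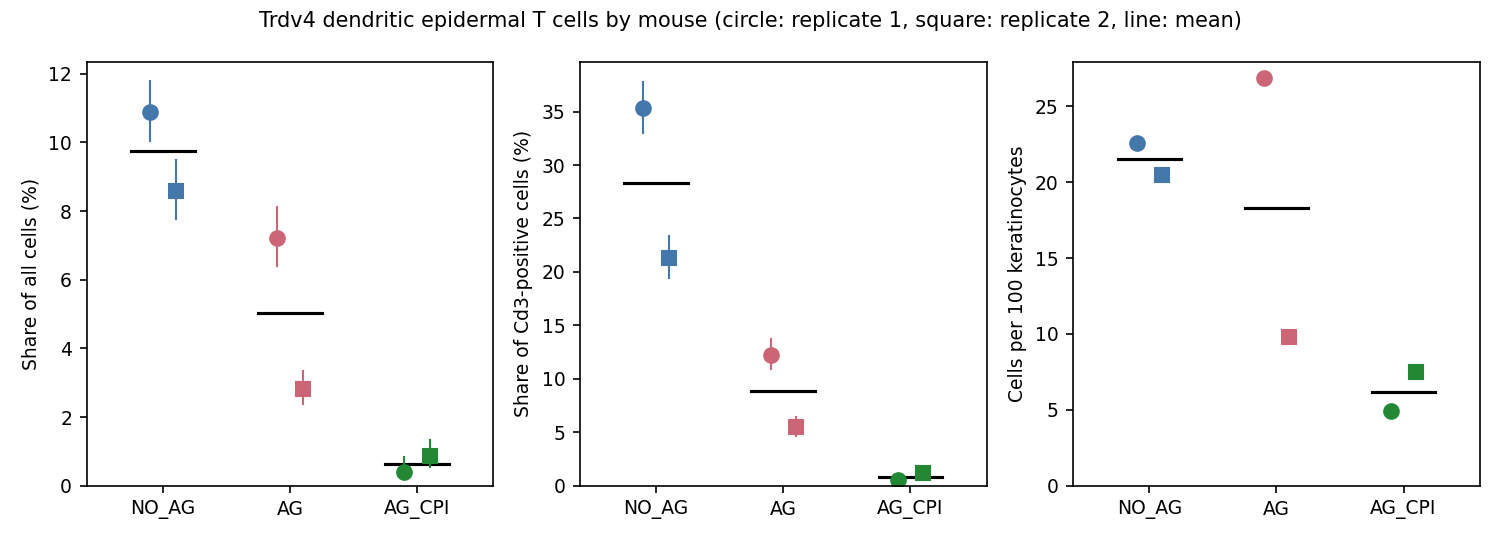
Members as a percentage of all cells (left), as a percentage of Cd3-positive cells (middle) and per 100 keratinocytes (right), by group. Circles are mouse 1, squares mouse 2, black lines group means and vertical lines Wilson 95% intervals; the 2 AG_CPI mice are the lowest in each panel, at 0.403% and 0.861% of all cells, and AG and NO_AG overlap only per 100 keratinocytes.

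Between AG and NO_AG, most listed interferon-response genes and genes of antigen presentation by MHC class I were higher in the members of both AG mice, while no single gene passed the test. The lists were chosen with earlier results of these data known, so their counts are a description. The limma fit over all 7270 genes called 0 genes at an adjusted p of 0.05 (0% of those tested), and 582 genes (8.01%) had an unadjusted p under 0.05. Changes are given as log2 differences of the mean level plus 0.1, which understates the change of low genes. For the mice that did not overlap, the background was 40.9% of all genes, 21.4% with both AG mice above both NO_AG mice and 19.5% with both below. These counts use the levels after scaling across mice, and the median difference of all genes was -0.005.

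Of 31 interferon-response genes tested, 29 had both AG mice above both NO_AG mice and 0 had both below, and 25 had an unadjusted p under 0.05. Their median log2 difference was 1.05. A gene entered the fit with a mean of at least 0.1 UMIs per 10000 and 10 UMIs in any 2 mice, and 4 of the 31 did not reach this in both NO_AG mice (Ifi27l2a, Rtp4, Usp18 and Oasl2), so they entered only through other mice. Of the other 27, counted after the values were seen, 25 had both AG mice above and 0 had both below, with a median of 1.00. Of all 7084 genes that reached it in both NO_AG mice, 20.8% had both AG mice above. Isg15, a ubiquitin-like modifier induced by interferons, averaged 0.789 and 0.982 in NO_AG and 2.63 and 2.95 in AG (1.69, SE 0.203, adjusted p = 0.234, limma). Igtp, a GTPase of the interferon-inducible resistance to intracellular pathogens, averaged 0.578 and 0.932 in NO_AG and 3.42 and 2.30 in AG (1.93, adjusted p = 0.346, limma). In both genes the lower AG mouse lay above the higher NO_AG mouse. Gbp2, a guanylate-binding protein, averaged 0.186 and 0.511 against 1.81 and 2.84. Ifi27l2a was at 0.0816 and 0.0325 in NO_AG and at 0.674 and 1.30 in AG, with a log2 difference of 2.86 (SE 0.365, adjusted p = 0.250, limma), and it is 1 of the 4 genes that entered through mice outside NO_AG. Zbp1, a sensor of nucleic acids, and Samhd1, a nucleotide hydrolase, also belonged to those 10, with log2 differences of 1.82 each. Socs1, an inhibitor of cytokine signalling, and Gbp8 were the 2 tested genes of the list whose mice overlapped.

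All 20 class I genes on the list were tested, each reaching the entry level in both NO_AG mice and both AG mice, and 19 had both AG mice above both NO_AG mice, with a median log2 difference of 1.00 and 18 at an unadjusted p under 0.05. The heavy chain H2-K1 averaged 24.3 and 34.6 UMIs per 10000 in NO_AG and 55.5 and 44.5 in AG. H2-D1, the other classical heavy chain, averaged 24.1 and 34.2 against 50.1 and 50.9, and B2m, the light chain, averaged 16.7 and 22.6 against 32.5 and 30.2. Both AG mice thus held more of each chain than either NO_AG mouse. H2-Q7, a non-classical class I gene, had 2.89 and 5.75 against 12.0 and 14.6. Psmb10, an immunoproteasome subunit, was the gene of the list with overlapping mice, at 1.33 and 1.72 against 4.01 and 1.48.

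The calls in these lists depended on which mice entered. Without AG mouse 2, limma called 216 genes (2.99%), 1.05% higher and 1.94% lower. Those called higher included 14 of 29 interferon-response genes and 14 of 20 class I genes. Without AG mouse 1, it called 1483 genes (20.8%), 9.24% higher and 11.5% lower. Those called higher included 22 of 28 interferon-response genes and 15 of 20 class I genes. In both fits only the NO_AG pair gave a spread, and the lone AG mouse was assumed to share it. Without a NO_AG mouse, only the AG pair gave one. The root mean square log2 distance, described below, was 0.211 between the NO_AG mice and 0.597 between the AG mice. With NO_AG mouse 1 or mouse 2 left out, 0 genes were called, and the list medians were 0.83 and 1.19 for interferon-response genes and 0.64 and 1.18 for class I genes.

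The AG_CPI mice, with 7 and 19 members, entered no gene test between groups, and their gene values are given as measured. Igtp averaged 3.45 and 2.49 UMIs per 10000 there and H2-Q7 10.7 and 12.2, all above both NO_AG mice. Isg15 was at 2.53 and 0.932, and the second of these lay between the NO_AG mice. Il7r, the receptor chain for interleukin 7, had 0.286 and 0.689 in NO_AG, 1.08 and 1.68 in AG (log2 difference 1.52, adjusted p = 0.586, limma), and 2.65 and 5.09 in AG_CPI. For Il7r each AG mouse lay above both NO_AG mice and each AG_CPI mouse above both AG mice, with 1 and 6 cells holding a UMI in AG_CPI. The sum of type 17 gamma-delta T cell markers followed the same order of groups, and Il17a was found in 0 and 1, 1 and 3, and 1 and 1 members. Their part in the Il7r values was not tested.

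**Figure D2:**
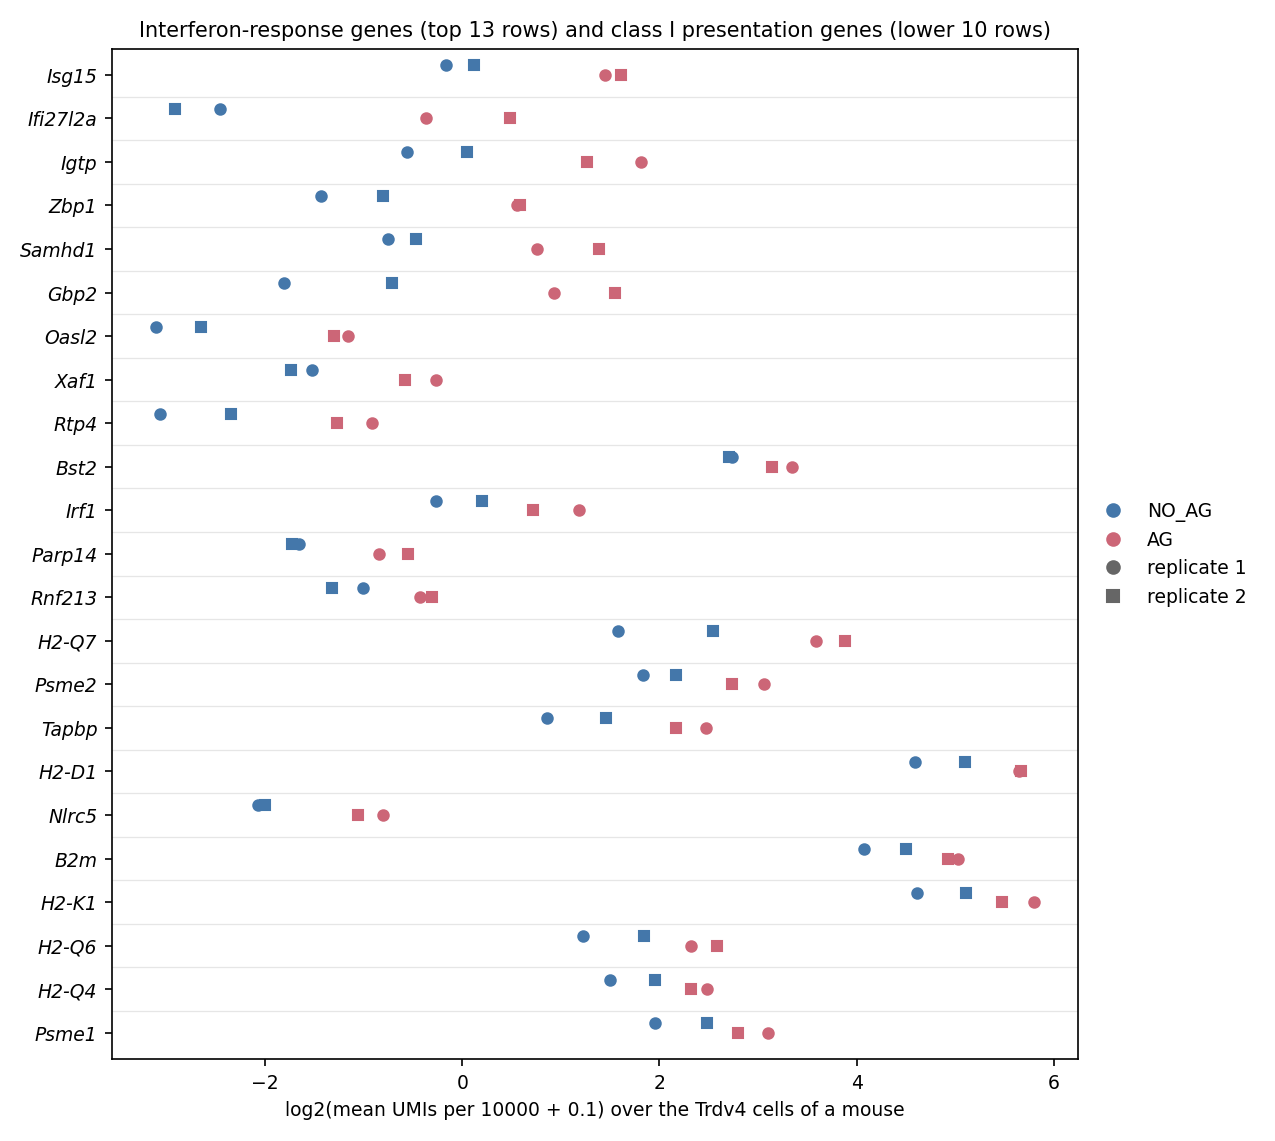
Mean level in members of each NO_AG and AG mouse for 13 interferon-response genes (top) and 10 class I genes (bottom), on an axis of log2(UMIs per 10000 + 0.1). Points are mice; in UMIs per 10000, for Igtp the NO_AG mice were at 0.578 and 0.932 and the AG mice at 3.42 and 2.30, and for H2-Q7 at 2.89 and 5.75 against 12.0 and 14.6.

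Promoters of 2 of these genes are shown because they hold the motifs searched for in the list. The interferon-stimulated response element was searched as GAAA, any 2 bases and GAAA again, and the gamma-activated site as TTC, any 3 bases and GAA, on both strands in the 250 bases before each start in RefSeq (mm10), and the 2 motifs may overlap. The Isg15 stretch lies at chr4:156200819-156201068 on the minus strand and holds 3 overlapping matches of the first motif, and the Igtp stretch lies at chr11:58199306-58199555 on the plus strand with 1 match of each. Capitals mark the matched bases.
Isg15: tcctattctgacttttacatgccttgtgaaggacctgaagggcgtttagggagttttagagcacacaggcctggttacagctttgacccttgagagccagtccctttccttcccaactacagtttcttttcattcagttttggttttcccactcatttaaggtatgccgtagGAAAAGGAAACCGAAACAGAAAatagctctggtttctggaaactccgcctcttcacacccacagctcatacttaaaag
Igtp: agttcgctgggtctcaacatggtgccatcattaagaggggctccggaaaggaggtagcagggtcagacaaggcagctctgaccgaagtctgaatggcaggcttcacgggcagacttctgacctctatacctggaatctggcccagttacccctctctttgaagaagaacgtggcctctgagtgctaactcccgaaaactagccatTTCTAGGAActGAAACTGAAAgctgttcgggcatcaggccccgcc

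Promoters were matched by symbol for 21 of the 31 tested interferon-response genes, which gave 26 promoters. Of these, 10 (38.5%) held the first motif and 7 (26.9%) the second, where 2.98% and 7.02% of all 32851 promoters did. The 20 promoters of 18 class I genes held the first motif in 3 (15%) and the second in 2 (10%). A match describes the letters and was not tied to binding in these data.

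The list of 10 macrophage and monocyte markers had a median log2 difference of 1.94 over 7 tested genes, of which 4 had both AG mice above both NO_AG mice, 0 had both below and 4 had an unadjusted p under 0.05. That median was 3.08 without AG mouse 1, 0.61 over 6 genes without AG mouse 2 and 0.22 over 3 genes with cells thinned. The 4 genes above (Lyz2, C1qa, C1qb and C1qc) did not reach the entry level in both NO_AG mice, so their direction follows from the filter, and the other 3 overlapped, with a median of -0.38. C1qa, a complement chain, was at 0.0371 and 0.0733 UMIs per 10000 in NO_AG and at 0.213 and 1.10 in AG, and it was found in 1.29% and 2.27% of members of NO_AG and in 1.19% and 4.55% of those of AG. The part of such cells in the results between AG and NO_AG was not tested. The 8 Langerhans and dendritic cell markers tested had a median of -0.75, which turned to 0.34 without AG mouse 1 (4 called higher and 2 lower, limma) and was -1.83 without AG mouse 2 (all 8 called lower). Of 17 genes of the immediate response to receptor triggering, 8 had both AG mice above both NO_AG mice and 1 had both below, with a median log2 difference of 0.37 (0.22 without AG mouse 1). Of these 17, 4 did not reach the entry level in both NO_AG mice, and of the other 13, 4 were above and 1 below (median 0.23). Of 11 receptor-complex genes, 1 was above and 3 were below (median -0.13), and of 13 dendritic epidermal T cell markers 2 were above and 3 below (median -0.13). Both medians changed sign with the AG mouse left out, at -0.43 and -0.34 without mouse 1 and 0.18 and 0.10 without mouse 2. Both lists hold genes that the rule or the label used, and 5 and 8 of their genes remain without these. The counts of these 2 lists therefore describe the chosen cells and are no test. Of 16 proliferation genes, 0 were above and 6 were below (median -0.36), such as Stmn1, a microtubule regulator, at 1.82 and 1.54 UMIs per 10000 in NO_AG against 0.568 and 0.823 in AG. Of these 16, 11 did not reach the entry level in both AG mice. Of all genes that did not, 25.5% had both AG mice below and 12.3% above. Of the other 5 proliferation genes, 0 were above and 3 below (median -0.38). Cells with both cycling genes had been left out by the rule. Of 15 residency and homing genes, 6 were above and 1 below, and Itgb7, an integrin chain that pairs with Itgae to bind E-cadherin, had 4.14 and 5.62 against 8.83 and 7.76. Itgae itself had 3.72 and 3.44 against 3.89 and 2.44, and overlapped. The 17 dissociation stress genes, such as Fos and Jun, had 5 above and 4 below (median 0.14, and -0.09 without AG mouse 1).

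Among the 10 genes with the smallest p, the 4 lower in AG were H2-M2, Cd207, Ltc4s and Ptgs1. Cd207, the C-type lectin langerin of Langerhans cells, was found in 31 and 17 members of the NO_AG mice and in 2 and 0 of the AG mice, at 0.581 and 0.839 against 0.0212 and 0 UMIs per 10000 (adjusted p = 0.196, limma). H2-M2 was found in 32 and 24 against 0 and 1 cells, and Ltc4s, leukotriene C4 synthase, in 29 and 13 against 1 and 1. Ptgs1, a cyclooxygenase, was found in 27 and 16 against 0 and 1. These 4 genes reached the entry level in NO_AG and not in both AG mice, and so few UMIs remained in AG that no fold is given. Cd207 was also lower in the keratinocytes of the AG mice, at 0.0879 and 0.104 against 0.0132 and 0.0137. The 9 Langerhans and dendritic cell markers, Cd207 among them, summed to 45.5 and 49.3 in members of NO_AG, to 12.6 and 46.8 in those of AG, and to 6.10 and 36.4 in those of AG_CPI, and in keratinocytes to 18.4 to 42.6. The part of these cells in the 4 genes was not tested.

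Among the NO_AG and AG mice, the members of AG mouse 2 lay farthest from the others. Over 714 genes with a mean of at least 2 UMIs per 10000, the root mean square log2 distance was 0.211 between the NO_AG mice, 0.597 between the AG mice, 0.446 and 0.367 from AG mouse 1 to the NO_AG mice, and 0.633 and 0.583 from AG mouse 2 to them. AG_CPI mouse 2, with 19 members, lay at 0.674 and 0.647 from the NO_AG mice, 0.680 from AG mouse 1 and 0.699 from AG mouse 2. AG mouse 2 lay more than 4-fold above the other 3 NO_AG and AG mice in 16 genes and below them in 8, and AG mouse 1 did so in 0 and 1 genes. Gzmb, a serine protease of cytotoxic granules, had the widest gap, at 24.2 UMIs per 10000 in AG mouse 2 against 0.212 and 0.353 in NO_AG and 0.946 in AG mouse 1. It was not seen in AG_CPI members, where 0 of 7 and 0 of 19 cells allow shares of cells with a UMI of up to 42.9% and 15.8%, at median depths of 1620 and 1976 UMIs, which sets no limit on cells expressing the gene. Gzmc, a related granzyme, had 62.7 in AG mouse 2 and 5.84, 12.4 and 4.63 in the NO_AG mice and AG mouse 1. Both granzymes were thus highest in that mouse.

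The same mouse was high in Klf2, a transcription factor of recirculating T cells, at 6.81 against 0.159 to 0.226 in the other 3, and in the AG_CPI mice Klf2 was at 0 and 2.97. Tigit, an inhibitory receptor, was at 4.77 against 0.260 to 0.362. Lag3, an inhibitory receptor that binds MHC class II, was low in that mouse, at 0.343 against 3.54 and 2.71 in NO_AG and 2.03 in AG mouse 1. In the AG_CPI mice, with 7 and 19 members, Tigit was at 0 and 2.27 and Lag3 at 1.78 and 0.781, so the 2 mice lay on opposite sides of the other 3 for Tigit. Prf1, the pore-forming protein perforin, was at 1.66 against 4.48 to 5.04. Without AG mouse 2 the log2 difference of Gzmb between AG and NO_AG was 1.58 in place of 3.88, that of Gzmc was -0.75 in place of 1.14, and that of Cd7 was 0.10 in place of -0.92.

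Within AG mouse 2, a Gzmb UMI was found in 62 of 132 members (47.0%, and 44.7% after each cell was thinned to 1500 UMIs), compared with 3.51%, 7.95% and 6.72% of members in the NO_AG mice and AG mouse 1. In the keratinocytes of AG mouse 2, which should lack the gene, the share was 9.87%, and 6.90% after thinning. The share in members was well above that. The 62 cells averaged 106 UMIs per 10000 of Gzmc and 28.7 of Xcl1, and the other 70 averaged 24.7 and 13.4, and 56 of the 62 held a Gzmc UMI. Cd7 was low in both sets, at 12.0 and 16.0, and its quartiles over the members of this mouse were 0, 9.79 and 19.98, against 37.3, 55.6 and 79.0 in NO_AG mouse 1. Trdv4 averaged 43.5 in the cells with Gzmb and 34.5 in those without. The 6 natural killer and type 1 innate lymphoid markers with a column summed to 84.8 in AG mouse 2 and 15.8 to 39.6 in the other 3 mice, and Gzmc and Xcl1 are 2 of those markers. Kit, another of the 6, was at 1.42 against 0.0393 to 0.0994. The 10 macrophage markers summed to 7.29 against 1.86 to 3.88, and C1qa, C1qb and Lyz2 were among the 16 high genes. The part of other cells in the values of this mouse was not tested.

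**Figure D3:**
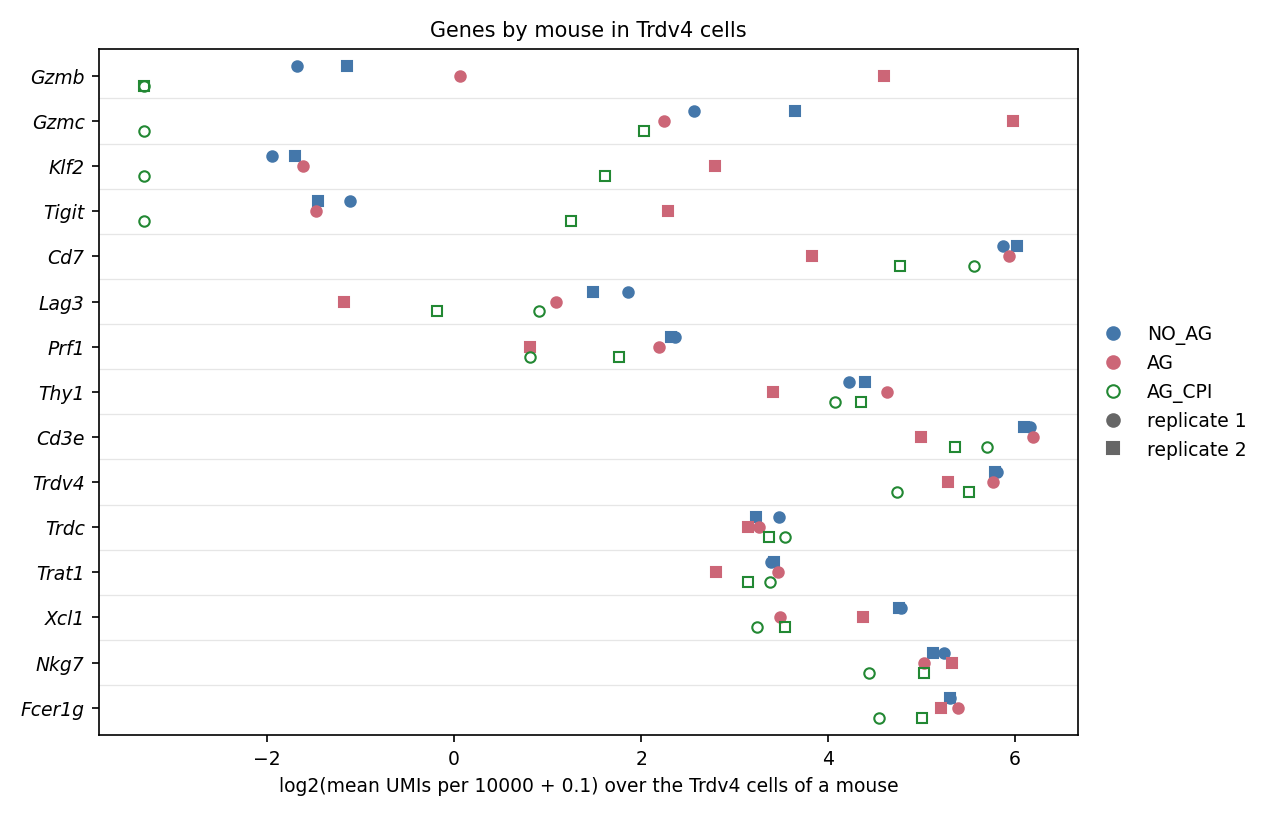
Mean level in members of each of the 6 mice for 15 genes, on an axis of log2(UMIs per 10000 + 0.1). Points are mice, coloured by group; in UMIs per 10000, AG mouse 2 is at 24.2 for Gzmb, 62.7 for Gzmc and 14.1 for Cd7, where the other AG mouse is at 0.946, 4.63 and 61.1.

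Set against the CD8 T cells of the same skin, members had more Fcer1g, Cd247 and Areg and less of the chemokines Ccl1, Ccl3, Ccl4 and Ccl5, of Ifng and of Gzma. CD8 T cells were Cd3-positive cells with a Cd8 UMI and none of Cd4, Trdc or Trdv4, and the pairs came from the 5 mice with at least 10 members. Apart from the genes used to choose or label either set, limma called 1445 of 7996 genes (18.1%), 664 higher (8.3%) and 781 lower (9.77%) in members. With the deposited scaling alone, which moved the median of all genes from -0.07 to 0.12 on the log2 scale, the split was 1062 higher and 536 lower. The 24 genes named below kept their direction and their call under that scaling and under every other setting tried for this comparison.

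Fcer1g, the signalling chain shared by Fc receptors and some T cell receptors, averaged 37.9 ± 3.71 UMIs per 10000 in members and 1.42 ± 0.843 in CD8 T cells (SD, n = 5 mice; log2 difference 4.53, SE 0.209, adjusted p = 3.1e-07, limma). Cd247, the zeta chain of the receptor complex, was 2.21 higher on the log2 scale. Avil, an actin-binding protein, averaged 5.69 ± 0.791 in members and 0.0250 in CD8 T cells (5.46), and Fermt2, which activates integrins, 4.68 against 0.0371 (5.01). Each of these was higher in members in all 5 mice. Kir3dl1, an inhibitory receptor of natural killer cells, averaged 2.29 against 0.0107, and Klrb1b, a lectin-like receptor, 1.41 against 0.0258. Atp1b1, a sodium pump subunit, Cntn1, Col27a1, Tsc22d1, Ctnnd2, Gcsam and Unc5b completed the 12 highest, with log2 differences from 3.33 to 4.36.

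At the other end, Gzma, a granzyme of cytotoxic T cells, averaged 0.0736 ± 0.0803 in members and 21.4 ± 29.1 in CD8 T cells (SD, n = 5 mice; log2 difference -6.06). The CD8 level thus varied widely between mice. Ccl5, Ccl4, Ccl3 and Ccl1, chemokines released by activated T cells, differed by -5.91, -5.75, -4.16 and -5.04, and Ifng by -5.16, at 0.0302 against 4.17 UMIs per 10000. Cxcr3, a chemokine receptor that draws T cells to inflamed tissue, averaged 0.0270 against 1.46. Ms4a6b, Ifi27l2a, Gimap4, Cd6 and Gimap3 completed the 12 lowest, with log2 differences from -3.52 to -3.99. All 12 were lower in members in all 5 mice.

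**Figure D4:**
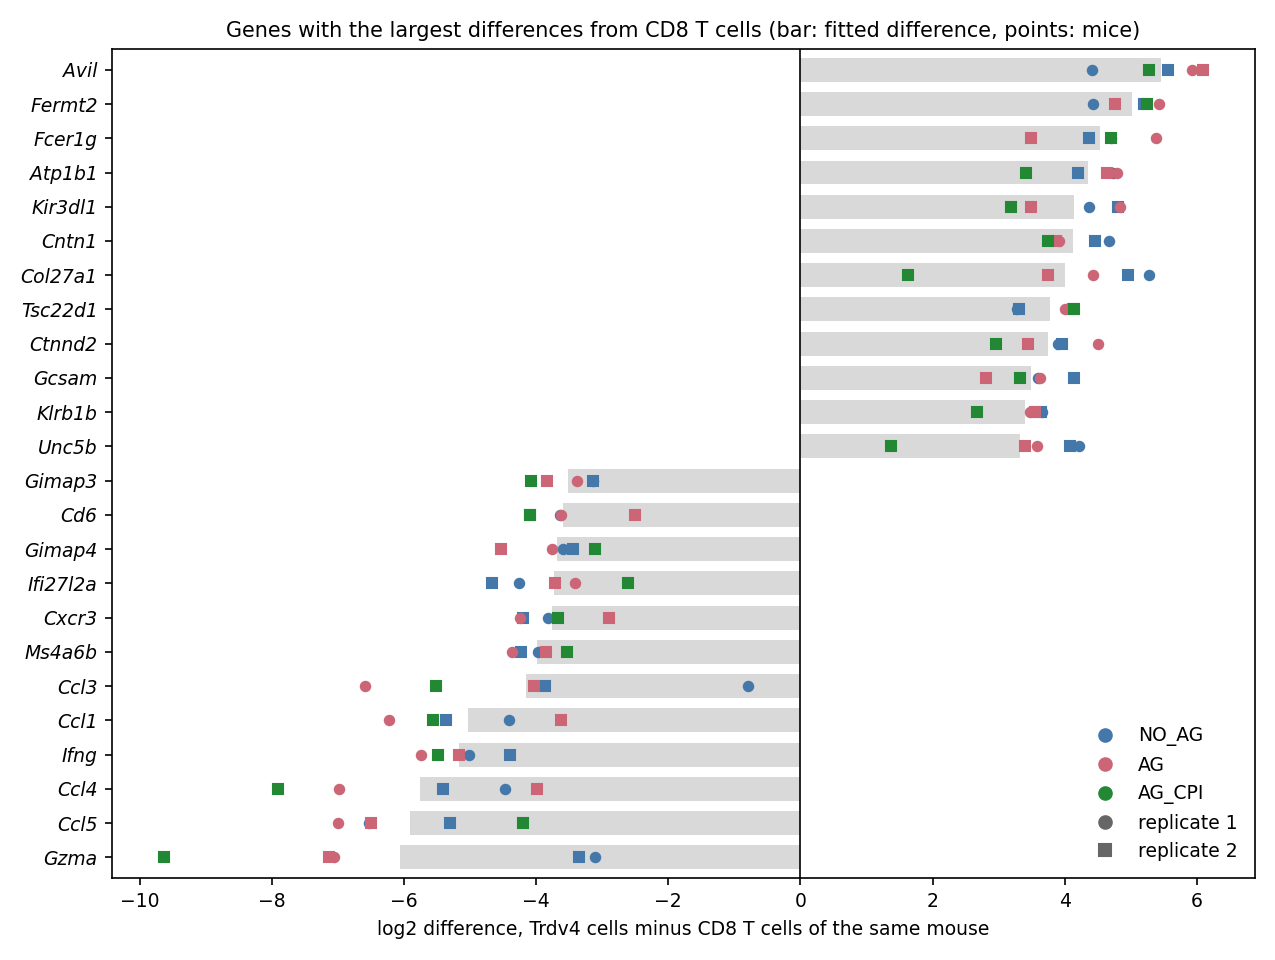
Log2 difference between members and CD8 T cells of the same mouse for the 12 highest and 12 lowest named genes. Bars are fitted differences and points are the 5 mice; the bars run from 5.46 for Avil to -6.06 for Gzma, and all 5 points of a gene lie on the same side of 0.

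By list, against 8.3% of all genes higher and 9.77% lower, 8 of 15 cytokine and growth factor genes were called lower in members and 3 higher. The 3 were Areg, the epidermal growth factor receptor ligand amphiregulin (2.66 against 0.281 UMIs per 10000, log2 difference 2.82), Il13 (0.709 against 0.193, 1.38) and Lta (0.98). Areg was at 2.99 and 1.57 for NO_AG, 3.21 and 4.06 for AG, and 0.912 and 1.48 for AG_CPI. Of 19 activating and costimulatory receptors, 12 were lower, such as Cd28 (-3.17), Cd27 (-3.40) and Icos (-2.17), and 1 was higher, which was Fcer1g. Of 10 inhibitory receptors, 6 were lower, among them Pdcd1 (-2.14), the gene of PD-1, and Ctla4 (-2.29), and Cd96 (1.33) was higher. Of 14 cytotoxic genes, 5 were lower and 3 were higher, one of which was Prf1 (1.43, higher in 4 of 5 mice).

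Of 21 residency and homing genes, 6 were higher and 10 lower. Cdh1, E-cadherin, which also joins keratinocytes, was 1.21 higher and Epcam 2.24 higher, and Itgb7 was 1.35 higher. Itga1 (-3.11), a collagen-binding integrin chain, and Cxcr6 (-1.31), a receptor of skin memory T cells, were lower. Itgae showed a difference of 0.02 and was not called. Of 23 transcription factors, 12 were lower, Tbx21 (-2.24) among them, and Runx3 (0.63) and Nfil3 (1.53) were higher. Ahr, the aryl hydrocarbon receptor, averaged 1.76 in members and 0.267 in CD8 T cells (2.29). Of 20 receptor-response genes, 11 were lower and 0 higher, and of 17 survival genes Bcl2 (1.89) and Bax (0.53) were higher and 5 were lower. Of 12 keratinocyte markers tested, 1 was higher, Dsp (1.85), a share near that of all genes, as was that of survival genes called higher.

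The difference between AG and NO_AG was not the same in members and CD8 T cells for 31 of 7996 genes (0.388%, limma on the difference within each mouse), with 5 higher (0.0625%) and 26 lower (0.325%) in members. Without a filter on low values, 0 genes were called and the named genes had adjusted p from 0.30 to 0.75 (limma). A negative value means that AG against NO_AG came out lower in members than in CD8 T cells. The make-up of the CD8 set differed between the groups: Trav14-1, a variable segment of the receptor alpha chain, named after its values were seen, had the second smallest p (-5.09) and was at 0 and 0.0642 UMIs per 10000 in CD8 T cells of NO_AG and at 4.80 and 3.96 in those of AG. The part of that change in the genes below was not tested. The inhibitory receptor Lag3 had 3.54 and 2.71 UMIs per 10000 in members of NO_AG and 2.03 and 0.343 in members of AG, while CD8 T cells had 0.310 and 0.217, then 3.73 and 4.11 (difference -5.18, SE 0.475, adjusted p = 1.3e-05, limma). Lag3 was thus higher in AG than in NO_AG in the CD8 set and lower in members. Without AG mouse 2, where Lag3 was lowest, the call remained. Tnfrsf9, the costimulatory receptor 4-1BB, had 3.1 and 4.72, then 3.18 and 1.87 in members, against 0.479 and 0.398, then 2.38 and 2.53 in CD8 T cells (-2.84). Prf1 had 5.04 and 4.88, then 4.48 and 1.66 in members, against 0.623 and 0.475, then 1.5 and 2.08 in CD8 T cells (-2.33). In NO_AG, members held more of all 3 genes than CD8 T cells did.

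Gzma stayed at 0.191 or less in members of all 6 mice and averaged 2.04 and 1.95, then 16.3 and 14.5 in CD8 T cells (-3.87). Klrc1, which encodes the inhibitory receptor NKG2A, had 0.414 and 0.474, then 0.326 and 0.630 in members, against 0.328 and 0.347, then 3.20 and 2.83 in CD8 T cells (-2.79). Its partner Klrd1 had 9.38 and 8.55, then 8.87 and 11.8 in members, against 2.44 and 3.14, then 8.43 and 10.3 in CD8 T cells (-1.48). The Klrd1 levels of members in NO_AG lay between the levels of CD8 T cells in the 2 AG mice. Of 10 inhibitory receptors, 3 were called lower in this comparison, and of 14 cytotoxic genes 4.

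The genes called higher were H2-Q7 (1.61), H2-Q4 (1.08), Rasgrp1 (1.86), Itgae (1.16) and the receptor segment Trbv3. H2-Q7 had 2.89 and 5.75, then 12.0 and 14.6 in members, against 6.10 and 8.0, then 8.10 and 6.96 in CD8 T cells, so it differed between AG and NO_AG in members and overlapped in CD8 T cells. Rasgrp1, which links the receptor to Ras, was at 0.116 and 0.160, then 0.439 and 0.394 in members, against 1.24 and 1.22, then 0.770 and 0.622 in CD8 T cells. The call of Rasgrp1 was lost without NO_AG mouse 1 or mouse 2 (adjusted p = 0.22 and 0.066, limma), and that of Prf1 without NO_AG mouse 2 (0.11). The calls of H2-Q4 and Itgae were each lost without NO_AG mouse 1 or mouse 2, and that of Itgae also without AG mouse 2. Of 20 class I genes, 2 were called higher and 0 lower, and of 37 interferon-response genes 0 were called either way, with medians of 0.69 and 0.25 against -0.03 over all genes.

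Several class II genes were among those called lower. Cd74, the invariant chain of MHC class II, had 19.99 and 21.5, then 5.25 and 14.4 in members, against 1.99 and 5.64, then 7.24 and 11.6 in CD8 T cells (-2.61). In keratinocytes it had 3.59 and 3.44, then 5.86 and 14. H2-Aa, H2-Ab1 and H2-Eb1 had differences of -2.61, -2.73 and -2.81. These 4 genes belong to the list of 9 Langerhans and dendritic cell markers, so the sum over all 9 holds them. The other 5 markers, summed after the values had been seen, came to 10.0 and 12.0, then 4.10 and 13.7 in members, against 2.02 and 4.07, then 4.02 and 5.02 in CD8 T cells. In members that sum was below both NO_AG mice in AG mouse 1 and above both in AG mouse 2. Its part in the class II values was not tested.

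**Figure D5:**
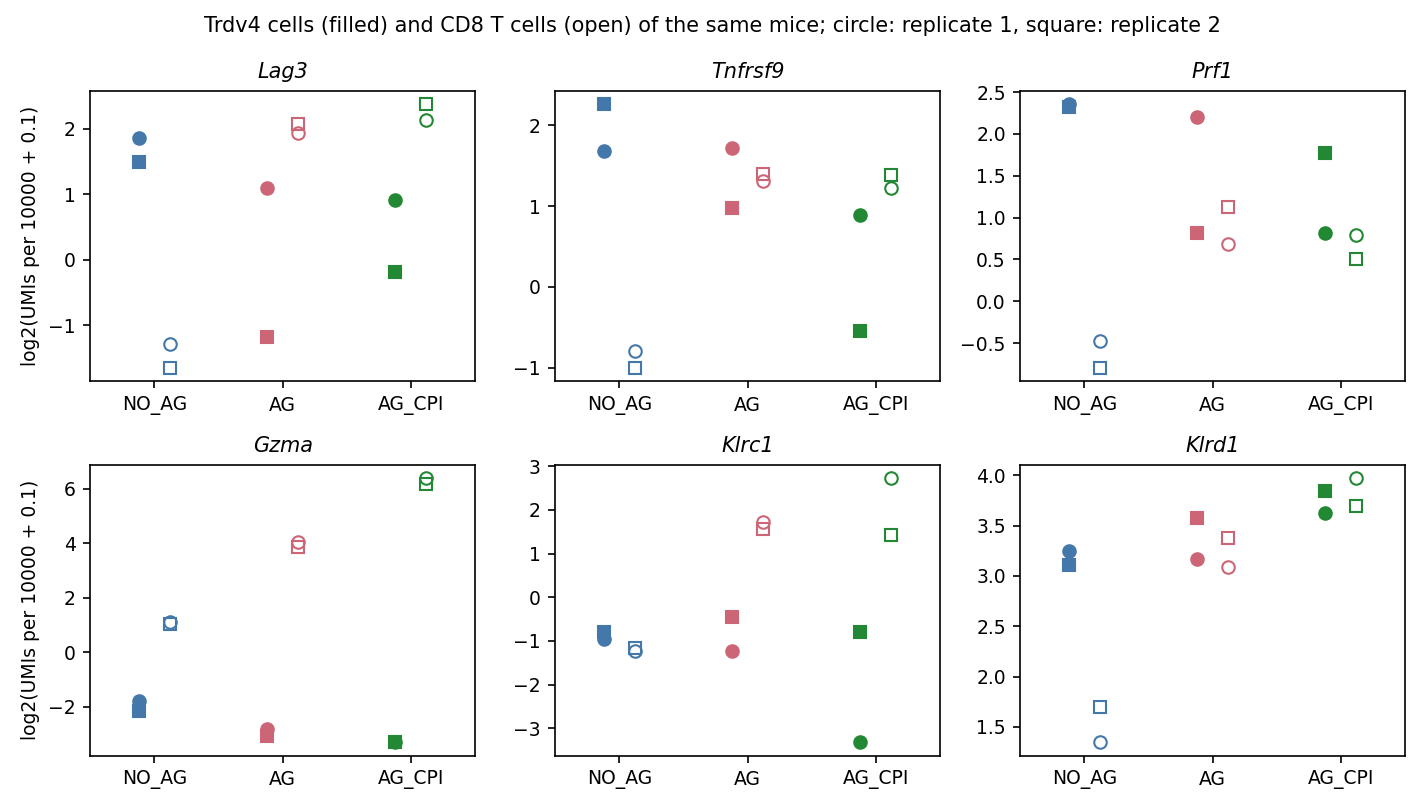
Mean level of Lag3, Tnfrsf9, Prf1, Gzma, Klrc1 and Klrd1 in members (filled) and CD8 T cells (open) of each of the 6 mice, on an axis of log2(UMIs per 10000 + 0.1). In UMIs per 10000, for Lag3 the filled points go from 3.54 and 2.71 in NO_AG to 2.03 and 0.343 in AG, and the open points from 0.310 and 0.217 to 3.73 and 4.11.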

How the data were processed

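Reads had been processed with Cell Ranger 3.1 and the mm10 build, per the submitters' processing notes, and further steps are not given in the sources used here. The authors deposited log10 values, read from the numbers as log10 of 1 plus UMIs per 10000, since 100% of them gave whole UMIs within 0.02 after inversion, and the 16158 gene columns hold 95.4% to 96.7% of a library's UMIs. Depth ran from 1501 to 14995 UMIs per cell. The deposited unit is not counts, so per-mouse means were tested and no count model was run, although whole UMIs could be recovered.

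For each mouse with at least 10 members, the mean linear value of each gene over members was taken, scaled across mice by TMM (trimmed means of log ratios), and put on the log2 scale with a pseudocount of 0.1. A gene entered with 10 or more UMIs and a mean of 0.1 or more in at least 2 mice. limma 3.58.1 in R 4.3.3 fitted all groups together, paired by mouse against CD8 T cells, and p-values were adjusted by Benjamini-Hochberg over all genes and called at 0.05. The fit was tested on simulated data. AG_CPI mouse 1 had 7 members, so it entered no fit. AG_CPI mouse 2 entered the gene filter, the scaling and the comparison with CD8 T cells. As the only mouse of its group in the fit between groups, it added nothing to the spread within groups. The fit of AG against NO_AG had 2 residual degrees of freedom. Fewer than 10 type 17 gamma-delta T cells per mouse left no comparison with them.

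Genes are named by p among calls (by log2 difference between cell sets), up to 12 a direction, or the 10 smallest p with under 5 calls, without receptor segments or genes that are mitochondrial, sex-linked or ribosomal, and list members by call and then level. Single genes of AG mouse 2, Il7r and the class II genes were picked after their values were seen. The members and lists were chosen with earlier results of these data known. No doublet caller was run. In place of one, 509 members (39.0%) with UMIs of at least 2 markers of a non-lymphoid list were left out as an alternative. No member barcode recurred among members of another library, and 36 recurred among its other cells. The other alternatives covered scaling, pseudocounts, filters, weights, depth, the rule for members, denominators and single mice.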

Additional observations from a re-analysis of the deposited data

Results flagged for a closer look

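The difference between AG and NO_AG was not the same in members and CD8 T cells of the same mice for 16 named genes, by limma on the within-mouse difference, with adjusted p from 4.9e-07 to 0.045. All values are log2 differences of AG against NO_AG, members minus CD8 T cells. Cytotoxic and receptor genes came out lower in members: Gzma (-3.87), Lag3 (-5.18), Tnfrsf9 (-2.84), Klrc1 (-2.79), Klrd1 (-1.48) and Prf1 (-2.33). The class II genes Cd74 (-2.61), H2-Ab1 (-2.73), H2-Aa (-2.61) and H2-Eb1 (-2.81) also came out lower. Sh2d2a, an adaptor of T cell signalling, was at -1.84 and Plac8 at -2.70. H2-Q7 (1.61), H2-Q4 (1.08), Rasgrp1 (1.86) and Itgae (1.16) came out higher in members. The NO_AG CD8 T cells numbered 109 and 334, against 733 and 482 in AG, and Trav14-1 was at 0 and 0.0642 UMIs per 10000 in the first 2 and at 4.80 and 3.96 in the others. Within-group outliers could not be looked for, since each group holds 2 mice.

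In AG_CPI mouse 1, Xist was found in 0 of 7 members, which allows a share of up to 42.9%, and in 0% of its keratinocytes, while 49.8% of its CD8 T cells held a UMI. In the other 5 mice Xist was found in 51.4% to 78.9% of members.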

How the results depend on the processing

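For AG against NO_AG, 0 genes were called by limma in the reported fit and in 13 of the alternatives that keep every NO_AG and AG mouse. Weights by the number of members gave 6 calls, and leaving out 1 mouse gave 0 to 1483, with 0 without NO_AG mouse 1 or mouse 2, 1483 without AG mouse 1 and 216 without AG mouse 2. A replicate block gave 22 calls. The deviations of same-numbered NO_AG and AG mice correlated at r = -0.085 over genes. The labels do not say whether same-numbered mice share a batch, and this was not tested. Without AG mouse 2, Cd7 (0.10), Gzmc (-0.75) and Tigit (-0.10) changed direction, and without AG mouse 1 they were at -1.94, 3.05 and 3.74. With the deposited scaling alone the median of all genes was -0.12. The comparison with CD8 T cells gave 974 to 1906 calls without 1 mouse and 1086 to 1598 under the other settings.

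The response difference gave 31 calls, 20 with the deposited scaling, 0 without a filter on low values, 19 with a replicate block, and 18 to 319 without 1 mouse: 18 without NO_AG mouse 1, 28 without NO_AG mouse 2, 319 without AG mouse 1 and 73 without AG mouse 2. Without the filter 13969 genes were tested, and the 16 named genes kept their direction with adjusted p from 0.30 to 0.75 (limma). Of these, 10 kept their call under every other setting, namely Gzma, Lag3, Tnfrsf9, Klrc1, Klrd1, Cd74, H2-Aa, H2-Ab1, H2-Eb1 and H2-Q7, while H2-Q4 and Itgae lost it under 4 and 6 of the others. The cause of these shifts was not tested. The direction of the share comparisons was the same under every denominator, rule and left-out mouse, except where stated per keratinocyte. Gene tests of AG_CPI against AG or NO_AG, and tests of type 17 gamma-delta T cells and of the V gamma segment, were not run, because cells or columns were too few.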
